A study of Homo sapiens with 11 samples.

Results

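A group of 8 chromatin regulator genes that have been studied in connection with miR-302 in cell reprogramming, or that work beside such genes in DNA methylation, was followed in PC-3 cells after transfection of small RNA duplexes. All probes carrying 1 of the 8 gene names in the scanner files were taken, which gave 13 of the 41000 probes of the array. The names are those of the array design. AOF1 is now KDM1B, AOF2 is now KDM1A, and the other 6 names, MBD2, MBD3, DNMT1, DNMT3A, DNMT3B and NR2F2, are still in use.

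PC-3 is a human prostate cancer cell line, and all the cells were the same line without any other genetic change stated in the labels. Mock cells received the transfection reagent without a duplex (4 arrays), and the other cells received dsEcad640, an siRNA designed against the E-cadherin promoter, or a duplex of miR-302a, miR-373, miR-520c or miR-520f (1 array each) or of miR-372 (2 arrays). RNA was taken at 24 h. Each of the 11 arrays held 150 ng of RNA mixed from 4 transfections, so that the spread between single transfections is not in the values. The labels do not say whether the mock arrays, or the 2 miR-372 arrays, held separate mixes or 1 mix. The p-values measure the spread between arrays. Where arrays of different duplexes form 1 group, that spread includes differences between the duplexes. The arrays form 3 sets, each of 1 slide. On the slide of set 1, mock sample 1 was beside dsEcad640 sample 2 and the samples 3 of miR-302a and 4 of miR-372. In set 2, mock sample 8 was beside miR-373 sample 7 and miR-520f sample 6, and in set 3, mock samples 9 and 11 were beside miR-520c sample 12 and miR-372 sample 10. The title of the miR-520f array reads miR-530f, whereas its other labels read miR-520f.

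Methylation of cytosines in CpG dinucleotides and removal of methyl groups from lysine 4 of histone H3 both accompany gene silencing. DNMT3A and DNMT3B write new DNA methylation, DNMT1 copies it after replication, and MBD2 binds methylated DNA and brings in the NuRD complex, in which MBD3 can take its place. KDM1A and KDM1B are the flavin-dependent demethylases of histone H3 lysine 4. NR2F2, also called COUP-TFII, is an orphan nuclear receptor of mesenchymal and venous cells that is known to repress the pluripotency gene POU5F1. MicroRNAs of the miR-302 and miR-372 families are abundant in embryonic stem cells, and erasure of DNA methylation is a known step of reprogramming to pluripotency.

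The seed, bases 2 to 8 of a small RNA, decides most of its target recognition. The mature strands of the 5 transfected miRNAs are shown, since the grouping of the arrays rests on their seeds. They are written 5′ to 3′ with the seed in capitals and were taken from RefSeq (GRCh38.p14), in which all 5 names matched.
hsa-miR-302a-3p: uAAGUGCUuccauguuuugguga
hsa-miR-372-3p: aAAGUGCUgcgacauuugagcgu
hsa-miR-373-3p: gAAGUGCUucgauuuuggggugu
hsa-miR-520c-3p: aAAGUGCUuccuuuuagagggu
hsa-miR-520f-3p: aAGUGCUUccuuuuagaggguu
The first 4 share the seed AAGUGCU. In hsa-miR-520f-3p the same 7 letters lie at bases 1 to 7, so that its seed is AGUGCUU. The gene of miR-302a lies on the minus strand of chromosome 4 and those of the other 4 on the plus strand of chromosome 19. The guide strand of dsEcad640 carries the seed AAGUGCU as well, and this siRNA together with miR-520c, miR-373, miR-372 and miR-302a forms the common-seed duplexes (6 arrays). No seed sites were searched in the transcripts of the 8 genes, whose sequences are not analysed here.

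Values are log2 processed signals less the 75th percentile of their array, and fold changes are differences of these values. The 6 common-seed arrays and the miR-520f array were each compared with the 4 mock arrays by limma with the set as a block, with Benjamini-Hochberg adjustment over all probes whose signal was marked by the scanner software as well above background on 6 or more of the 11 arrays. Of the 13 probes, 12 passed this filter. The second MBD2 probe did not. The second AOF1 probe passed it through the 4 mock arrays and only 2 arrays of the common-seed duplexes. The share of all probes well above background ran from 54.5% on the miR-520f array to 88.1% on the array of miR-372 sample 4. The epithelial markers KRT8, KRT18 and KRT19 were well above background on all 11 arrays in all their 7 probes. Of the 8 epithelial marker probes, 5 were called higher under the common-seed duplexes, at an adjusted p under 0.05, against 2.14% of all probes. These 5 came from only 2 genes, KRT8 and KRT18. Of the 15 probes of blood, endothelial and fibroblast markers, 3 (of CD3E, PECAM1 and COL1A1) were well above background on all 11 arrays, 5 others on 6 to 8 arrays, and the other 7, of CDH5, PTPRC, COL3A1 and VWF, on 5 or fewer. No probe of these 3 lists passed the test under the common-seed duplexes. COL1A1 was above the mock arrays of its set on all 6 common-seed arrays (0.76, adjusted p = 0.211) and gave 2.53 with miR-520f (adjusted p = 0.114), and its part in the results was not tested.

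Of the 8 genes, MBD2 and AOF1 fell under the common-seed duplexes, each on 1 of its 2 probes. MBD2 decreased 2.67-fold on the only one of its probes that passed the filter. AOF1 decreased 3.17-fold on 1 probe, a value that depended on the background correction. AOF2, MBD3, DNMT1, DNMT3A, DNMT3B and NR2F2 did not pass the test. Among them, the DNMT3B and both DNMT3A probes were above the mock arrays of their set on all 6 common-seed arrays, as were 12.4% of all probes. Altogether 2 of the 12 probes were called at an adjusted p under 0.05, both lower, against 4.19% of all probes (2.05% lower and 2.14% higher). Quantile normalization gave 2 lower and 1 higher (DNMT3A A_23_P154500, adjusted p = 0.0445). With a filter on all 11 arrays or with the authors' deposited table, in which AOF1 could not be tested, MBD2 was lower and DNMT3A A_23_P154500 (adjusted p = 0.0307 and 0.0257) and DNMT3B (0.0366 and 0.0419) were higher. At an unadjusted p under 0.05 the numbers were 5 of 12 and 21.1%. The median fold change of the 12 probes was 0.12 and that of all probes was 0.03. As these are bulk samples, fewer cells that make a transcript and less of it per cell cannot be told apart.

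**Figure D1:**
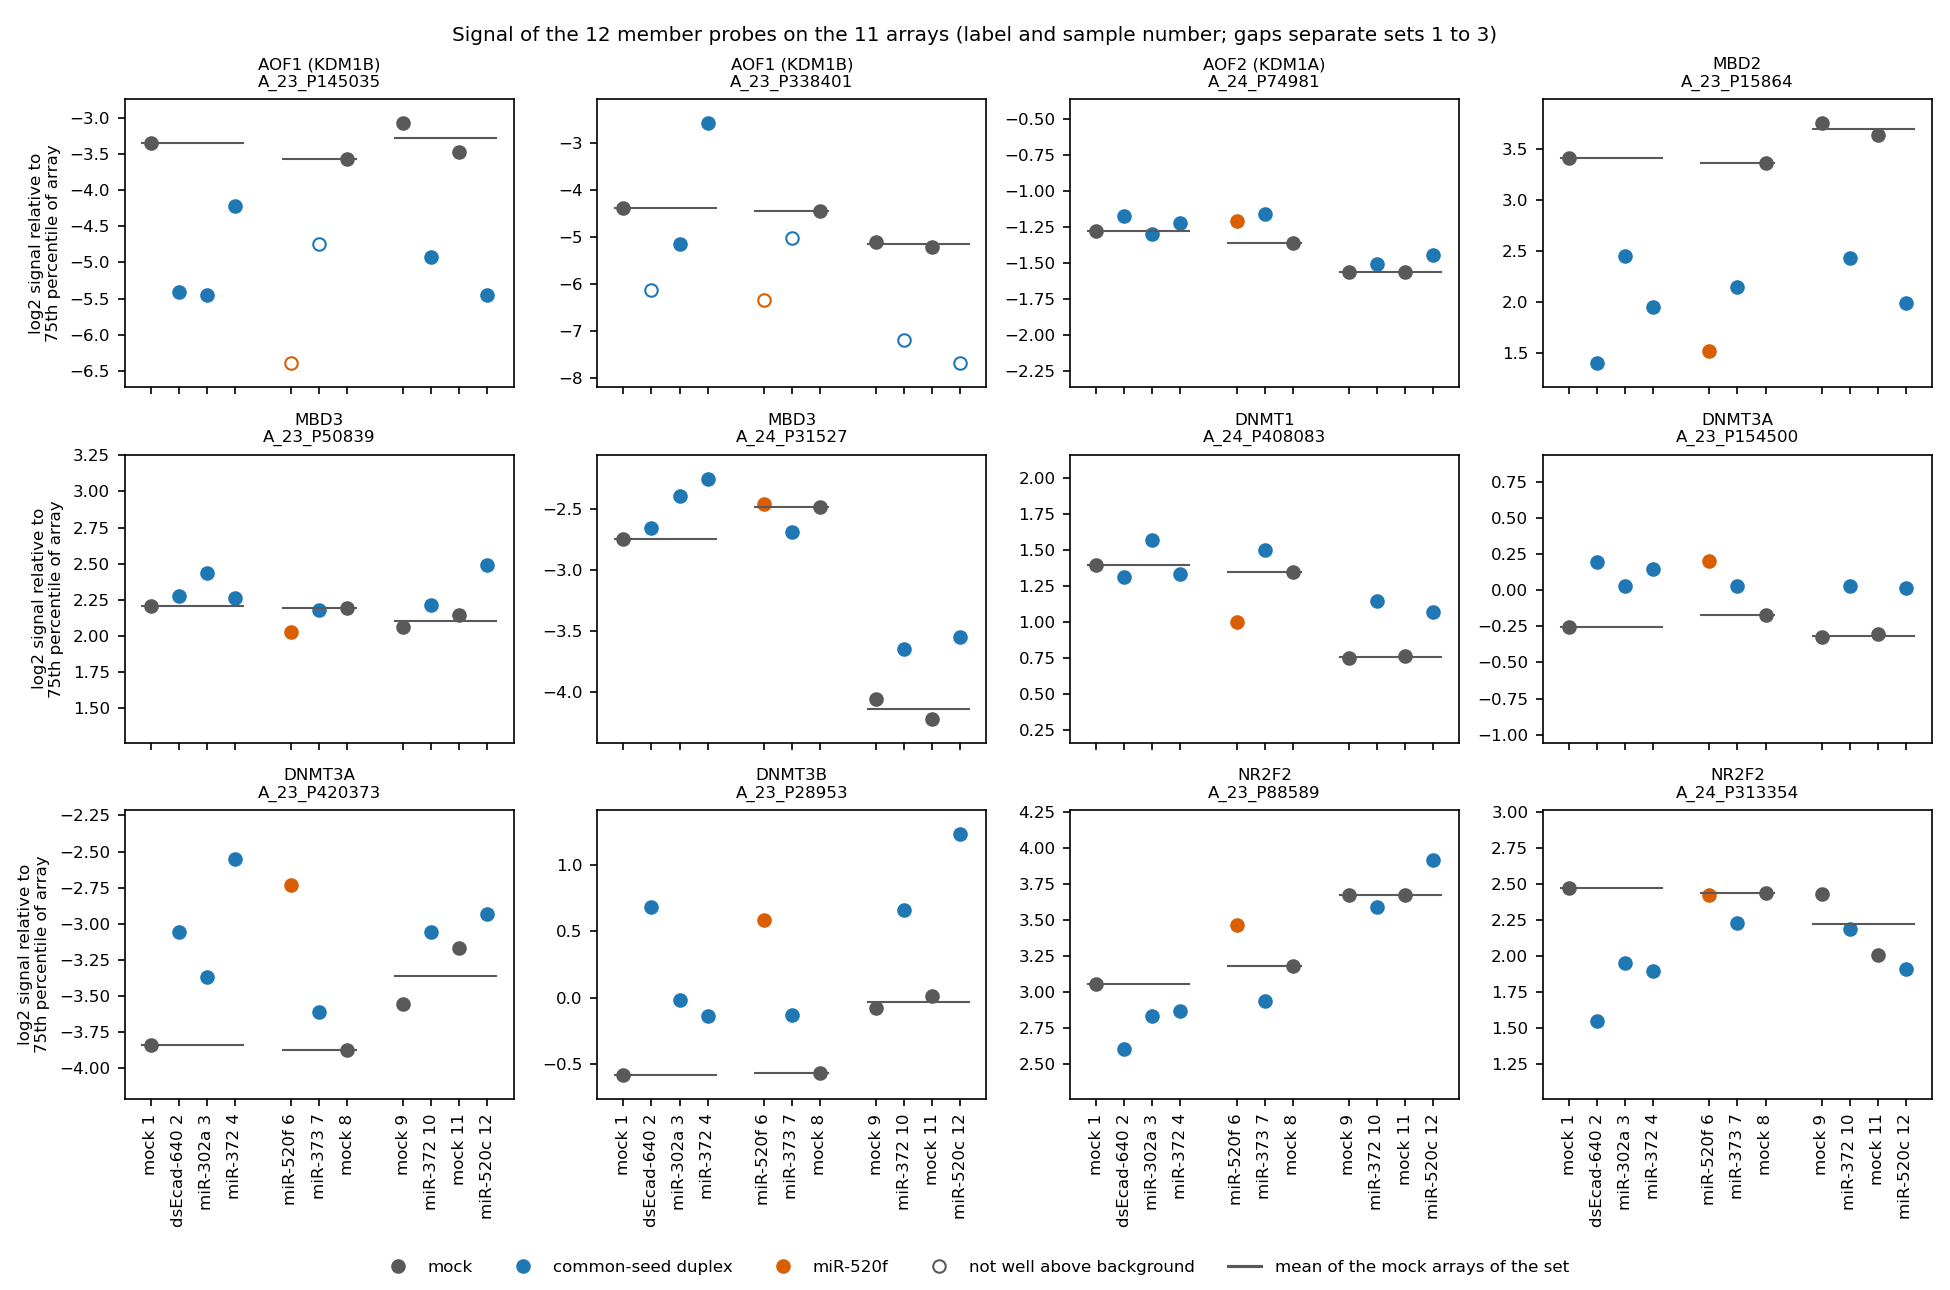
Log2 signal less the 75th percentile of its array for the 12 tested probes on the 11 arrays, ordered by set, with mock arrays in grey, common-seed duplexes in blue, miR-520f in orange, open points for signals not well above background and grey lines for the mean of the mock arrays of a set. The y axes differ between panels and span at least 2 units. All 7 duplex arrays lie below the mock arrays in the panels of MBD2 and AOF1 A_23_P145035, and all 7 lie above the mock arrays of their set in the panels of DNMT3B and DNMT3A. Of all probes, 7.44% were below and 10% above the mock arrays of their set on all 7.

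MBD2 was measured by probe A_23_P15864 (chr18:49935391-49935450, hg18, minus strand), and it was well above background on all 11 arrays. The level was 3.41, 3.36, 3.75 and 3.63 on the arrays of mock samples 1, 8, 9 and 11. It was 1.40 with dsEcad640, 2.45 with miR-302a, 1.96 and 2.44 with miR-372 samples 4 and 10, 2.15 with miR-373, 2.00 with miR-520c and 1.53 with miR-520f. The highest duplex array was lower than the lowest mock array, so the groups did not overlap in any set. Relative to the mock arrays of the same set, the decrease was smallest with miR-302a (-0.96) and largest with dsEcad640 (-2.00). The common-seed fold change was -1.42 ± 0.20 (SE, 6 and 4 arrays, 95% interval -1.89 to -0.95, adjusted p = 0.0130 by limma). The mock arrays spread over 0.39. The call was lost without mock sample 1 (-1.39, adjusted p = 0.116) and without mock sample 8 or miR-373 sample 7, which give the same fit (-1.47, adjusted p = 0.0502). Without the arrays of miR-372 sample 4, miR-520f and miR-373, which had the highest and the lowest shares of probes well above background, it was -1.48 (adjusted p = 0.0337).

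The second MBD2 probe, A_24_P119201 (chr18:49983111-49983170), is annotated to the testis-specific transcript variant. Its signal was not well above background on any mock array. It was well above background with miR-373 (-2.95), miR-372 sample 10 (-5.77) and miR-520c (-5.04), and not with the other duplexes. On 5 of the 6 common-seed arrays this probe was above the mean of the mock arrays of its set, opposite to the first probe. Since it did not pass the filter, no test was made.

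AOF1 encodes KDM1B, a demethylase known for its role in setting up maternal imprints in oocytes. Probe A_23_P145035 (chr6:18331299-18331359, plus strand) had levels of -3.35, -3.57, -3.07 and -3.48 on the arrays of mock samples 1, 8, 9 and 11. The level was -5.41 with dsEcad640, -5.45 with miR-302a, -4.22 and -4.92 with miR-372 samples 4 and 10, -4.74 with miR-373 and -5.45 with miR-520c. All the duplex arrays were lower than all the mock arrays. Signals were low throughout, and those with miR-373 and miR-520f (-6.40) were not well above background. The decrease was at least 1.92-fold on the miR-373 array against the mock array of its set. The common-seed fold change was -1.67 ± 0.28 (SE, 95% interval -2.32 to -1.01, adjusted p = 0.0232 by limma), with 5 of the 6 arrays well above background. It was -1.62 (adjusted p = 0.0281) when dim signals were raised to the lowest signal well above background on the array.

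The AOF1 call held without dsEcad640, miR-302a or miR-372 sample 4, and it was lost without any of the other 7 common-seed or mock arrays. The adjusted p was then 0.153 without mock sample 1, 0.0587 without mock sample 8 or miR-373 sample 7, 0.0720 without mock sample 9, 0.0597 without miR-372 sample 10, 0.0699 without mock sample 11 and 0.0593 without miR-520c sample 12. The fold change in these fits stayed between -1.81 and -1.53. It was -0.79 with normexp background correction (adjusted p = 0.0035), and the call was lost without a filter (adjusted p = 0.0761) and with the mean of the gene's probes (-1.45, adjusted p = 0.138).

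The other AOF1 probe, A_23_P338401, lies 690 bases upstream on the same strand (chr6:18330550-18330609). Its levels were -4.38, -4.44, -5.11 and -5.22 on the arrays of mock samples 1, 8, 9 and 11. With the duplexes, they were -6.13 with dsEcad640, -5.14 with miR-302a, -2.58 and -7.21 with miR-372 samples 4 and 10, -5.03 with miR-373, -7.70 with miR-520c and -6.35 with miR-520f. The array of miR-372 sample 4 was the highest of all, above every mock array, while the other 6 duplex arrays were each below the mock arrays of their set. Of the duplex arrays only miR-302a and miR-372 sample 4 were well above background. The common-seed fold change was -1.23 ± 0.71 (SE, 95% interval -2.86 to 0.41, adjusted p = 0.379 by limma). No fit without miR-372 sample 4 is given, since 1 common-seed array well above background would remain. That array also had the highest share of all probes well above background, whose part in its signal was not tested. As bounds against the mock arrays of the set, this probe was at least 2.67-fold lower with dsEcad640, 3.49-fold lower with miR-372 sample 10 and 2.32-fold lower with miR-520c. The bound was 1.05-fold with miR-373. None could be set with miR-520f, since the lowest signal well above background on that array (-4.14) was above the mock level (-4.44).

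AOF2, the KDM1A gene, is the demethylase subunit of the CoREST complex. Its probe A_24_P74981 (chr1:23278082-23278141, plus strand) lay between -1.56 and -1.28 on the mock arrays and between -1.51 and -1.16 on the duplex arrays. The common-seed fold change was 0.10 (95% interval -0.07 to 0.26, adjusted p = 0.503). A decrease of the size seen for AOF1 or MBD2 is outside this interval.

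MBD3 is the NuRD subunit related to MBD2. Probe A_23_P50839 (chr19:1527867-1527926, minus strand) lay between 2.06 and 2.20 on the mock arrays and between 2.02 and 2.49 on the duplex arrays. Its common-seed fold change was 0.15 (95% interval -0.07 to 0.36, adjusted p = 0.420). Probe A_24_P31527 (chr19:1533639-1533698) gave 0.30 (95% interval -0.03 to 0.63, adjusted p = 0.276). On the latter probe the mean of the mock arrays of set 3 was 1.52 lower than that of sets 1 and 2, which is larger than any of its differences between a duplex and the mock arrays of its set.

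**Figure D2:**
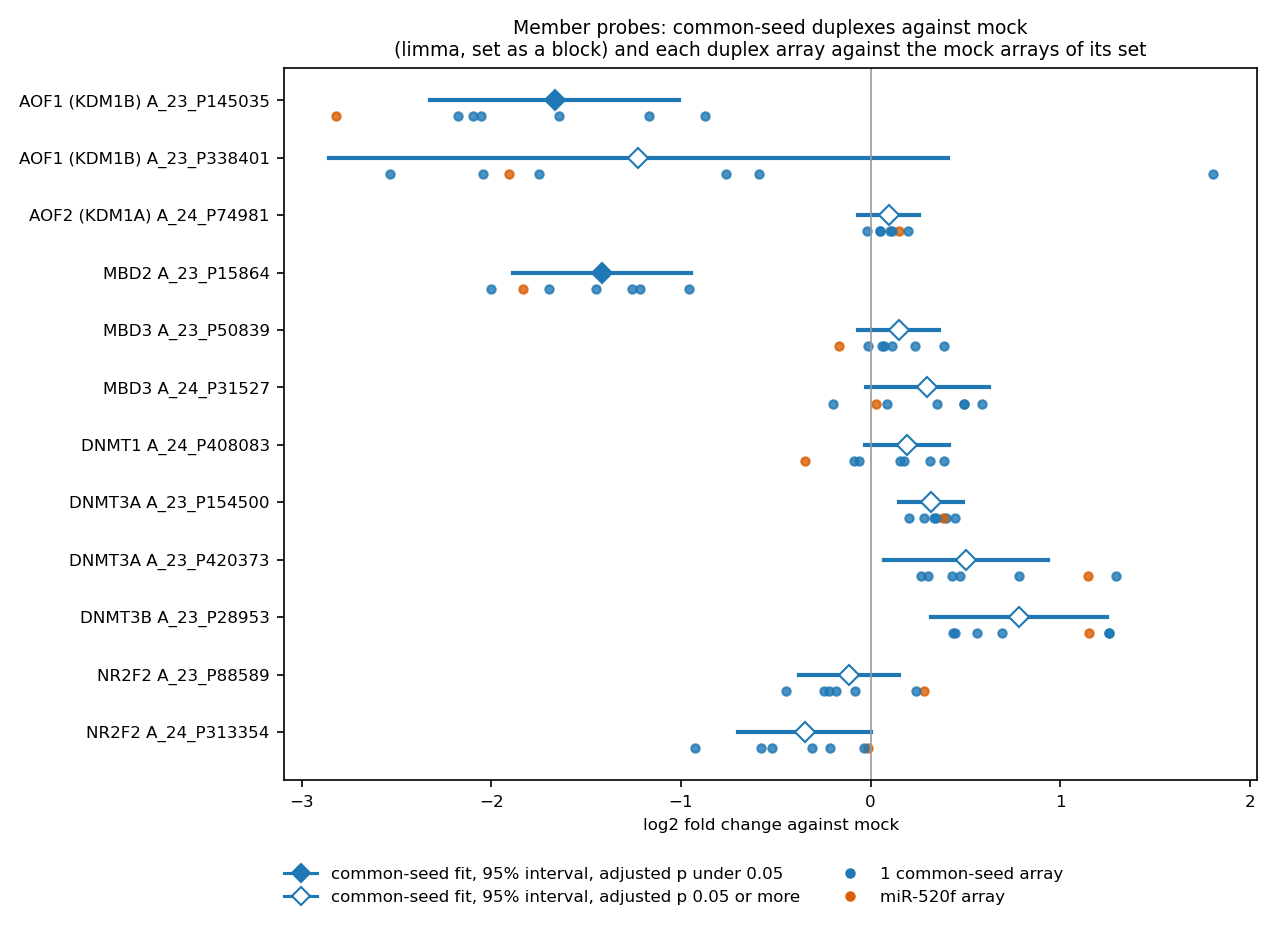
Log2 fold change against mock for the 12 tested probes. Diamonds with bars are the common-seed fit with its 95% interval, filled where the adjusted p was under 0.05. Small points are the difference of each duplex array from the mean of the mock arrays of its set, in blue for the common-seed duplexes and in orange for miR-520f. The intervals of MBD2 and AOF1 A_23_P145035 lie below 0, those of DNMT3A and DNMT3B lie above 0 without passing the adjustment, and the others include 0.

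Of the DNA methyltransferases, DNMT3B had the largest fold change. Its probe A_23_P28953 (chr20:30860725-30860784, plus strand) had levels of -0.58, -0.57, -0.07 and 0.01 on the arrays of mock samples 1, 8, 9 and 11. The level was 0.68 with dsEcad640, -0.02 with miR-302a, -0.14 and 0.66 with miR-372 samples 4 and 10, -0.13 with miR-373, 1.23 with miR-520c and 0.59 with miR-520f. Within each set all duplex arrays were above the mock arrays, but the mock arrays of set 3 were as high as the lower duplex arrays of sets 1 and 2. The differences within a set ran from 0.44 with miR-373 and miR-372 sample 4 to 1.26 with dsEcad640 and miR-520c. The common-seed fold change was 0.78 ± 0.20 (SE, 95% interval 0.32 to 1.24) with an adjusted p of 0.0713 by limma. In the 10 fits that left out 1 array it ran from 0.65 to 0.88, with an adjusted p from 0.0406 (without miR-372 sample 4, the only one called) to 0.255 (without mock sample 1). Without the set block it was 0.68 (adjusted p = 0.361).

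DNMT3A had 2 probes for different transcript variants. Probe A_23_P154500 (chr2:25309919-25309978, minus strand) lay at -0.25, -0.17, -0.32 and -0.30 on the arrays of mock samples 1, 8, 9 and 11 and between 0.02 and 0.21 on the 7 duplex arrays, without overlap. The fold change was small but even, at 0.32 ± 0.07 (SE, 95% interval 0.15 to 0.49, adjusted p = 0.0531). Probe A_23_P420373 (chr2:25357898-25357957) had lower signals, from -3.88 to -3.17 on the mock arrays and from -3.62 to -2.55 on the duplex arrays. Its fold change was 0.50 ± 0.19 (SE, 95% interval 0.07 to 0.94, adjusted p = 0.174), and it exceeded 1 with miR-372 sample 4 (1.29) and miR-520f (1.15).

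The maintenance enzyme DNMT1, measured by A_24_P408083 (chr19:10107808-10107867, minus strand), lay between 0.75 and 1.40 on the mock arrays and between 1.00 and 1.57 on the duplex arrays. The common-seed fold change was 0.19 (95% interval -0.03 to 0.41, adjusted p = 0.306), with 4 of 6 arrays above and 2 below the mock arrays of their set.

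Across all probes, 8.71% were below every mock array of their set on all 6 common-seed arrays and 12.4% were above. Of the 12 probes, 2 were below (MBD2 A_23_P15864 and AOF1 A_23_P145035) and 3 were above (DNMT3B and both DNMT3A probes). The same probes were below or above when the miR-520f array was added, against 7.44% and 10% of all probes.

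NR2F2 had mock levels from 3.05 to 3.68 on probe A_23_P88589 (chr15:94682961-94683020, plus strand). The duplex arrays lay between 2.61 and 3.92, and the common-seed fold change was -0.11 (95% interval -0.38 to 0.15, adjusted p = 0.645). On the other probe, A_24_P313354, whose listed coordinates span chr15:94678806-94681609, the mock levels ran from 2.01 to 2.47 and the duplex levels from 1.55 to 2.42. This probe gave -0.35 (95% interval -0.70 to 0.0031, adjusted p = 0.242), with the lowest level on the dsEcad640 array.

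With miR-520f, none of the 12 probes passed the test against mock, in a comparison in which 0.657% of all probes did, whereas 5 of 12 and 12.4% had an unadjusted p under 0.05. The 1 array was assumed to vary like the others. AOF1 A_23_P145035 was at least 1.48-fold lower than on the mock array of the set. Its fitted fold change was -3.07 (95% interval -4.31 to -1.82, adjusted p = 0.0578 by limma). That fit used the miR-520f signal, which was not well above background. The MBD2 fold change was -1.94 (95% interval -2.83 to -1.04, adjusted p = 0.0805). DNMT3B was 1.32 (95% interval 0.44 to 2.21, adjusted p = 0.189) and DNMT3A A_23_P420373 was 1.27 (95% interval 0.44 to 2.09, adjusted p = 0.179). The last 3 estimates had the sign of the common-seed estimate and lay farther from 0.

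The difference between miR-520f and the common-seed duplexes was called for 0.0591% of all probes and for none of the 12, of which 2 had an unadjusted p under 0.05, as did 7.41% of all probes. It was -0.52 for MBD2 (95% interval -1.42 to 0.38, adjusted p = 0.930) and 0.54 for DNMT3B (95% interval -0.34 to 1.42, adjusted p = 0.917). For DNMT1, which was -0.32 with miR-520f, it was -0.52 (95% interval -0.94 to -0.09, adjusted p = 0.535). These intervals are wide, and a difference between the 2 seeds was neither shown nor bounded closely for these genes.

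The duplexes were also compared with mock one at a time, in a fit with 2 residual degrees of freedom. No probe of the array passed the adjusted threshold by limma for any of the 6 duplexes, and the share at an unadjusted p under 0.05 was 7.81% with dsEcad640, 3.91% with miR-302a, 9.54% with miR-372, 7.53% with miR-520f, 3.58% with miR-373 and 16.9% with miR-520c. Between 2 and 5 of the 12 probes were under this unadjusted threshold in each comparison, and MBD2 was so in all 6, with estimates from -1.95 with dsEcad640 to -0.90 with miR-302a. The same duplexes differed most from the mock arrays of their set for MBD2 and for DNMT3B, with opposite sign. MBD2 was lowest relative to its set with dsEcad640, miR-520f and miR-520c, in this order, and DNMT3B was highest with dsEcad640, miR-520c and miR-520f. In set 1, miR-372 sample 4 ranked before miR-302a for MBD2 and after it for DNMT3B. AOF1 A_23_P145035 was lowest with miR-520f, miR-520c and miR-302a, and dsEcad640 had rank 4. These are descriptions of single arrays that share mock arrays within a set.

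**Figure D3:**
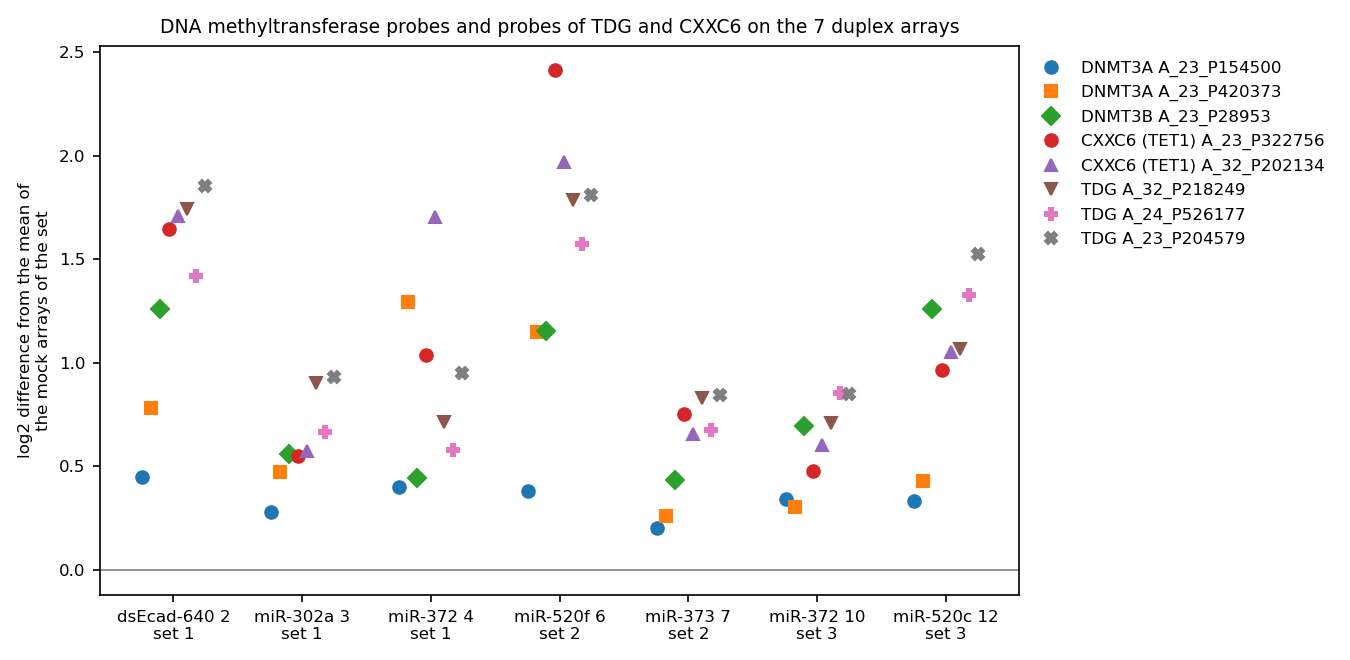
Log2 difference of each of the 7 duplex arrays from the mean of the mock arrays of its set, for the DNMT3A and DNMT3B probes and for the probes of TDG and CXXC6 (TET1). All points are above 0, and the highest is CXXC6 A_23_P322756 with miR-520f at 2.41. TDG is shown because it was called, and CXXC6 was added after its values were seen. DNMT1 and the other genes of the list are not shown. DNMT1 was below the mean of the mock arrays of its set on 2 of the 6 common-seed arrays, and both UHRF2 probes were below it on all 6.

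Partner genes were counted in lists by function. Among the DNA methylation cofactors and demethylation genes, 16 probes of 9 genes were tested, 1 was higher and none was lower (2.14% of all probes were called higher and 2.05% lower), with a median fold change of 0.12 against 0.03 over all probes. The 1 called probe was that of TDG, the glycosylase that excises oxidised methylcytosine in active demethylation. TDG A_23_P204579 (chr12:102906572-102906631) differed by 0.85 to 1.86 from the mock arrays of the set on the 7 duplex arrays and had a common-seed fold change of 1.13 ± 0.24 (SE, adjusted p = 0.0428). The other TDG probes gave 0.95 (adjusted p = 0.0506) and 0.93 (adjusted p = 0.0531). The call of the first probe was lost in 8 of the 10 fits that left out 1 array, namely without any of the 10 common-seed and mock arrays but dsEcad640 sample 2 and miR-372 sample 4, and the lowest fold change there was 1.00.

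CXXC6, the former name of TET1, encodes a dioxygenase that oxidises methylcytosine upstream of TDG, and it is described here after its values were seen. Its 2 probes, which overlap by 40 bases, gave 0.85 and 0.96 under the common-seed duplexes (adjusted p = 0.107 and 0.0812), but 0.21 and 0.29 with normexp background correction and 0.62 and 0.79 with quantile normalization. With miR-520f they gave 2.46 (95% interval 1.33 to 3.59, adjusted p = 0.0766) and 2.12 (95% interval 0.98 to 3.26, adjusted p = 0.113). All 7 duplex arrays were above the mock arrays of their set on both probes, by 0.48 to 2.41, from low mock means of -4.85 and -4.45.

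In the LSD1-CoREST list, 13 probes of 8 genes were tested, 1 was lower and none was higher, against 2.05% and 2.14% of all probes, with a median of -0.08. RCOR3, a CoREST paralogue, gave -0.54 ± 0.09 (SE, adjusted p = 0.0208) on A_32_P167122, while its other 2 probes did not pass (adjusted p = 0.592 and 0.983). Of the 16 NuRD probes, 1 was higher, against 2.14% of all probes, with a median of 0.07. It was that of GATAD2A (0.48 ± 0.10 SE, adjusted p = 0.0442), a zinc finger subunit that bridges parts of the complex, and it was higher on all 6 common-seed arrays. The GATAD2A call remained in 1 of the 10 fits with 1 array left out, that without miR-372 sample 4, and the RCOR3 call remained in 4 of 10, those without dsEcad640 sample 2, miR-372 sample 4, mock sample 9 or miR-520c sample 12.

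The other lists held no called probe. Of 11 probes of methyl-CpG readers other than MBD2 and MBD3, ZBTB4 was lowest (-0.56, adjusted p = 0.291, and -0.26 without miR-520c sample 12) and MBD1 A_24_P376322 highest (0.52, adjusted p = 0.570). This MBD1 probe was well above background on 8 arrays. It gave 0.30 without miR-372 sample 4 and 0.08 with normexp background correction. The other MBD1 probes gave 0.19 and 0.15. Of 34 probes of histone H3 lysine 4 and lysine 9 enzymes, SETD7 A_24_P251841 was lowest (-0.50, adjusted p = 0.0743) and JARID1B A_32_P70724 highest (0.44, adjusted p = 0.0669). The other SETD7 probe gave -0.02 (adjusted p = 0.984), and the other JARID1B probe gave 0.27 (adjusted p = 0.339). In the pluripotency list only 5 of 18 probes were well above background on enough arrays, and SALL4 was highest (0.86, adjusted p = 0.324). SALL4 was well above background on 7 arrays, of which 2 were mock, and gave 0.20 with normexp background correction. Its differences from the mock arrays of the set ran from 0.03 with miR-373 to 2.58 with miR-372 sample 4. In the list of developmental nuclear receptors 4 of 9 probes were tested, and NR2F6 was highest (0.56, adjusted p = 0.0820) and NR5A2 lowest (-0.22, adjusted p = 0.869).

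**Figure D4:**
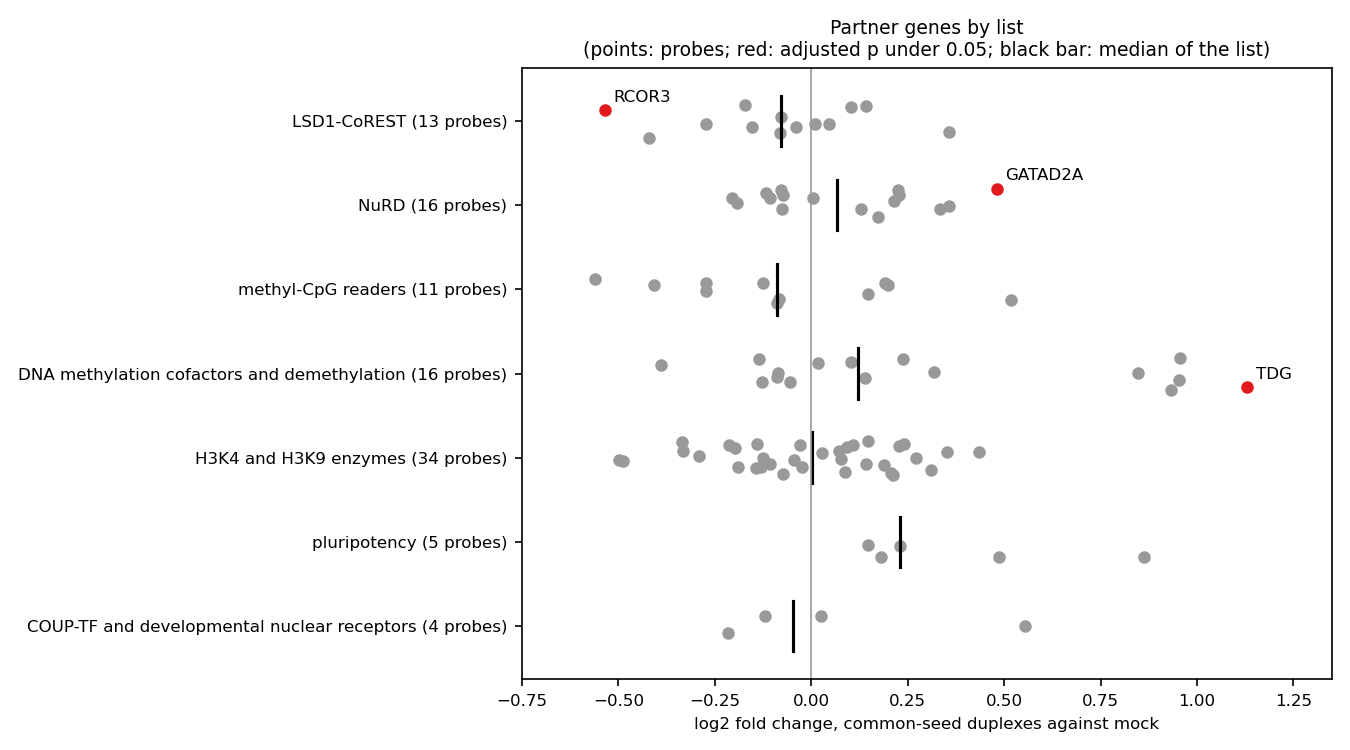
Log2 fold change of the common-seed duplexes against mock for the tested probes of the 7 lists of partner genes. Each point is a probe, red points had an adjusted p under 0.05, and black bars are the medians of the lists, which lie between -0.09 and 0.23. The 3 red points are RCOR3, GATAD2A and TDG.

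Finally, the probes whose pattern over the 11 arrays was most like that of each gene were looked up, after values had been centred within sets, as a description without a test over arrays that share slides and mock samples. For MBD2 they were HCFC1R1 (Pearson's r = 0.994), SNAPAP (0.990) and RNH1 (0.986). AOF1 A_23_P145035 was most like DKFZP434A0131 (0.983), CYBRD1 (0.980) and CYB5R4 (0.979). The probes nearest to DNMT3B were those of MAPK14 (0.994), CREM (0.992) and C17orf63 (0.992), and those nearest to DNMT3A A_23_P154500 were MTF2 (0.985), NAB1 (0.984) and INPP5A (0.983). AOF2, MBD3, DNMT1 and NR2F2 had highest values of 0.939, 0.967, 0.985 and 0.919, and that of DNMT1 was above that of AOF1. Each of these values is the highest over 26919 probes.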

How the data were processed

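The authors deposited a table of log2 values and the scanner output of Agilent Feature Extraction 10.5.1.1. The normalization of the log2 table is not given in the sources used here. Per the file headers, the processed signal is an intensity after background subtraction, with probe coordinates of hg18. From its log2 the 75th percentile of each array was subtracted, spots marked as outliers (52 to 209 of 43376 per array) were left out, and spots of a probe were averaged. Precision is limited by the number of arrays, and none of the spots was saturated. Of 41000 probes, the 27135 well above background on at least 6 arrays were tested with limma 3.58.1 in R 4.3.3, which was tested on simulated data. Groups were mock, common-seed and miR-520f, with the set as a block and 6 residual degrees of freedom. Alternatives were no block, quantile normalization, normexp correction with an offset of 50, other filters, the deposited log2 table, the mean of a gene's probes and each array left out. Raising dim signals and leaving out 3 arrays were added after the data were seen. The 8 genes, the lists and the tests were chosen with earlier results of these data known. Named were all probes of the 8 genes and, per list, the called probes or, where none was called, those that moved most each way, and CXXC6 and COL1A1 were added after their values were seen. For 11 of the 13 probes the accession matched the RefSeq table, and the others matched by symbol. Exon and UTR positions are not analysed here.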

Additional observations from a re-analysis of the deposited data

Results flagged for a closer look

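Among the 4 mock arrays, mock sample 11 stood apart on NR2F2 A_24_P313354, with a level of 2.01 against 2.43 for the nearest mock array, a gap of 0.908 of the range. It was 1 of 26 groups of values looked at in this way, and chance marks about 1 in 20. The 2 miR-372 arrays moved in opposite directions on AOF1 A_23_P338401, by 1.80 in set 1 and by -2.04 in set 3 against the mock arrays of the set, and the difference was not tested. On DNMT1 A_24_P408083 they differed from the mock arrays by -0.063 in set 1 and by 0.39 in set 3, which was not tested either.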

How the results depend on the processing

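The 27135 probes gave 1136 calls under the common-seed duplexes, and 385 without the set block, 215 without a filter, 2084 with a filter on all arrays, 2012 with the deposited table and 744 without the arrays of highest and lowest detection. Leaving out 1 array gave 24 (without mock sample 1) to 1918 (without miR-372 sample 4) calls, and 0 to 4 of the 12 probes instead of 2. Without a filter, or with the mean of a gene's probes, 1 was called, that of MBD2. Under miR-520f, 178 calls became 80 without the block, 441 with quantile normalization, 93 with normexp, 1 without a filter, 321 with the filter on all arrays, 289 with the deposited table and 0 to 786 without 1 array. The 16 calls for miR-520f against the common-seed duplexes became 170, 29, 0, 63 and 49 with quantile normalization, normexp, no filter, all arrays and the deposited table, and 0 to 334 without 1 array. For single duplexes, 0 calls became 28 (dsEcad640), 35 (miR-372), 1 (miR-373) and 139 (miR-520c) with normexp, and 8 (dsEcad640), 11 (miR-302a) and 274 (miR-520c) without the 3 arrays. Without 1 array they were 0 to 2717 (dsEcad640), 1838 (miR-302a), 3418 (miR-372), 128 (miR-520f), 112 (miR-373) and 281 (miR-520c), in fits with few residual degrees of freedom. The causes were not tested.

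MBD2 was called in 16 of 19 alternatives (-1.49 to -1.33), AOF1 A_23_P145035 in 8 of 17 (-1.98 to -0.79), DNMT3B and DNMT3A A_23_P154500 in 3 of 19 each and AOF1 A_23_P338401 in 2 of 17, both without miR-372 sample 4, where 1 common-seed array was well above background. No estimate for the 12 probes changed sign. NR5A2 did, with values from -0.44 to 0.051 without 1 array (the latter without mock sample 1) and 0.045 with dim signals raised. The set, which matches duplex and mock arrays of a slide, is the block of the reported fits, and no block by sample number was fitted because the numbers are not shared between groups.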
